A study of Mus musculus with 19 samples.

Results

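Genes that take part in the recognition and uptake of dead cells and lipids were followed in retinal microglia, and all 10 were found by symbol among the 27299 genes of the expression table. They are *Gas6*, *Pros1* and *Mfge8*, which encode secreted bridging proteins, *Mertk* and *Tyro3*, which encode receptor tyrosine kinases, *Timd4*, which encodes a phosphatidylserine receptor, *Cd36*, *Msr1* and *Marco*, which encode scavenger receptors, and *Cd68*, which encodes a protein of late endosomes and lysosomes. Bulk RNA-seq compared 6 control samples with 6 laser samples (CNV d3). The laser samples came from eyes that had received 6 argon laser burns, a model of choroidal neovascularization (CNV) in which new vessels grow from the choroid, and were taken on day 3, while the control eyes were unlasered. All mice were 8 weeks old, and in both groups the cells were sorted as positive for CD11b and CX3CR1 and negative for Ly6C, which marks monocytes, and for Ly6G of neutrophils. The labels name the strain C57BL/6J and cells positive for CD45, whereas the methods name *Cx3cr1* GFP/+ mice, which carry 1 functional allele of *Cx3cr1* in both groups, and cells low for CD45.

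A dying cell exposes phosphatidylserine on its surface, and macrophages bind this lipid either directly, as TIM-4 (*Timd4*) does, or through soluble proteins that bridge the lipid and a receptor. *Gas6* bridges to the TAM receptors *Tyro3*, *Axl* and MerTK, protein S (*Pros1*) bridges to *Tyro3* and MerTK, and *Mfge8* bridges to integrins. Scavenger receptors bind modified lipoproteins, long-chain fatty acids, microbes and debris, and microglia use these routes to clear neurons and photoreceptor fragments.

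The deposited value of a gene is a normalized count, that is, its reads divided by the size factor of the sample. Between 10963178 and 22335233 reads lay on genes in the control samples and between 23532260 and 29523018 in the laser samples, so that depth and group cannot be told apart. Microglial marker genes summed to 1268939 to 1455051 normalized counts in control and to 691843 to 1048502 in CNV d3, with 7 of the 10 markers lower and none higher by limma. *Xist*, which is transcribed from the inactive X chromosome, was at 6522 to 9795 normalized counts in all 6 control samples and at 3116 to 5245 in laser replicates 1 to 3, but at 0 to 0.866 in laser replicates 4 to 6. *Ddx3y*, a gene of the Y chromosome, was at 1239 to 1450 normalized counts in those last 3 samples and at 0 in the other 9. The labels give no sex, and calls that were lost with laser replicates 1 to 3 alone are named below. Nothing states that the replicates were separate mice, so p-values measure the spread between these samples.

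Of the 10 genes, *Cd36*, *Msr1* and *Gas6* were higher in CNV d3 and *Mertk* was lower at a Benjamini-Hochberg adjusted p under 0.05 (limma on log2(normalized count + 1), over all 27299 genes). By the same rule 8.29% of all genes were higher and 4.57% were lower, and among the 13614 genes with a mean of at least 10 normalized counts 13.7% were higher and 8.92% lower. *Cd36* and *Msr1* were also differentially expressed genes (DEG), with a log2 fold change above 1.5, as were 3.91% of all genes. None of the 10 genes was a decreased DEG, against 1.07% of all genes. The 6 laser samples lay above all 6 control samples for *Cd36*, *Msr1* and *Gas6*, a separation seen in 4.64% of all genes, and the opposite separation was seen in none of the 10 and in 2.83% of all genes. In bulk samples, fewer cells of a type and less RNA per cell cannot be told apart.

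**Figure D1:**
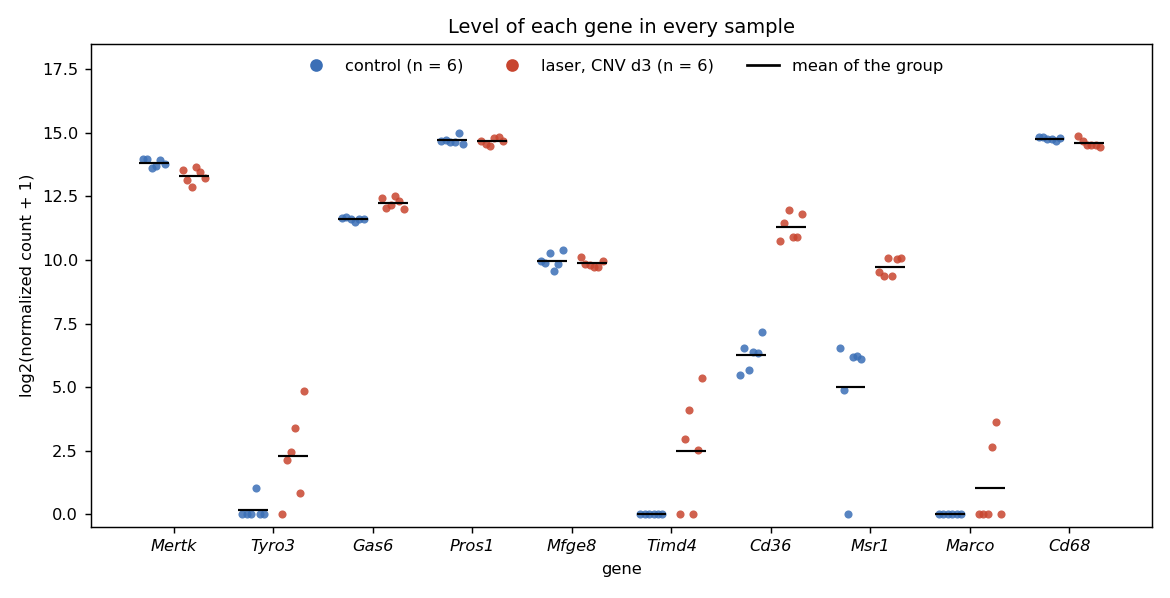
Normalized counts of the 10 genes in each of the 12 samples, on the scale log2(normalized count + 1), with a line at the mean of each group (n = 6). Cd36, Msr1 and Gas6 of the laser samples lie above every control sample, Tyro3, Timd4 and Marco lie at or near 0 in control, and Pros1, Mfge8 and Cd68 overlap.

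The 250 bases before a RefSeq transcription start of *Cd36*, *Gas6* and *Mertk* are shown because these are 3 of the 4 genes that differed, on GRCm38.p6. They were searched on both strands for the GC box (GGGCGG), the CCAAT box (CCAAT), the ETS core (GGAAGT), the AP-1 site (TGANTCA) and the TATA box (TATAAA), and matches stand in capitals as they read on the strand of the gene. The *Cd36* window is chr5:17835897-17836146 on the minus strand, the *Gas6* window is chr8:13494536-13494785 on the minus strand and the *Mertk* window is chr2:128698665-128698914 on the plus strand. The window of *Cd36* lies inside the gene as annotated by Gencode (17781690 to 17888801), and other starts of *Cd36* were not examined.
Cd36: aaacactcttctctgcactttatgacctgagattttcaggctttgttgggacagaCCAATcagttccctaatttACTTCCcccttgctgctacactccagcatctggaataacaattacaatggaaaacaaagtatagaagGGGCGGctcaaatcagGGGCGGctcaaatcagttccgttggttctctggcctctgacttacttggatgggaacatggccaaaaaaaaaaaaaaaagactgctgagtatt
Gas6: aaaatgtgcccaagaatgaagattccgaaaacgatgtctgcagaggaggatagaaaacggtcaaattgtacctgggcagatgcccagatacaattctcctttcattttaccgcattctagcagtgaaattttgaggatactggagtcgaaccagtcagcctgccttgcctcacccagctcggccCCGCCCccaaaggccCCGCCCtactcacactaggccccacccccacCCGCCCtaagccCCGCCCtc
Mertk: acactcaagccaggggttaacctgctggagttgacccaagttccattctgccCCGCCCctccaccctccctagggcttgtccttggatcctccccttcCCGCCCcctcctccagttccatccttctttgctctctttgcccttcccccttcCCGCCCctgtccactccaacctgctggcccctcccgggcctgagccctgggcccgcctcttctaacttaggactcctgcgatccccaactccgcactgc
The windows of *Gas6* and *Mertk* held 4 and 3 GC boxes and none of the other motifs. That of *Cd36* held 2 GC boxes, 1 CCAAT box and 1 ETS core, and its GC content was 43.2%, against 54.8% for *Gas6* and 63.6% for *Mertk*. Of 32851 RefSeq promoter windows of the same length, 32.7% held a GC box, 33.8% a CCAAT box, 19.7% an ETS core, 6.75% an AP-1 site and 12.4% a TATA box, and their median GC content was 52.4%. A match of letters is not evidence that a factor binds there.

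*Gas6*, the ligand of all TAM receptors, was increased in CNV d3. Its lowest, median and highest normalized counts were 2847, 3134 and 3304 in control and 4081, 4848 and 5888 in CNV d3. The lowest laser sample thus lay above the highest control sample, and the control samples were within 458 of each other. The log2 fold change was 0.64 with an SE of 0.10 (limma, adjusted p = 0.000623), and the mean rose 1.57-fold. *Gas6* lies on chromosome 8 (13465374 to 13494490, GRCm38, minus strand), and some of its exons overlap those of *Tmem255b* on the other strand, which reads counted without strand cannot tell apart.

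*Pros1*, which encodes protein S, a second ligand of *Tyro3* and MerTK and an anticoagulant cofactor, did not pass the test. Its lowest, median and highest normalized counts were 24385, 25944 and 32368 in control and 23217, 26273 and 29215 in CNV d3, so that the groups overlapped over most of their range. The log2 difference was -0.02, with a 95% interval from -0.20 to 0.15 (limma, adjusted p = 0.848). *Mfge8*, the bridge to the integrins alpha-v beta-3 and beta-5, was between 748 and 1329 normalized counts in control and between 840.4 and 1110.4 in CNV d3. The groups overlapped here too, with a log2 difference of -0.11 and an interval from -0.43 to 0.21 (limma, adjusted p = 0.618).

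Levels of different genes were compared per kb of exon, since long transcripts collect more reads. The exons of all annotated transcripts of a gene were merged for this length, so that close levels of different genes depend on that choice. On this scale *Pros1* stood at 6553 ± 697 normalized counts per kb in control and 6436 ± 597 in CNV d3 (mean ± SD, n = 6), above *Gas6* at 1226 ± 61.5 and 1924 ± 282. The level of *Pros1* was thus 4.83 to 6.47 times that of *Gas6* within each control sample and 2.98 to 4.02 times in each laser sample, so that the ranges of this ratio did not overlap. *Gas6* made up 15.9% ± 1.38 of the summed level of both ligands in control and 23.0% ± 1.95 in CNV d3 (SD, n = 6 each).

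*Mertk*, which encodes the TAM receptor best known for the clearance of apoptotic cells and, in the pigment epithelium, of outer segments, was decreased. The lowest, median and highest normalized counts were 12615, 14824 and 16171 in control and 7471, 10500.2 and 13007 in CNV d3. The groups overlapped, since laser replicate 4 lay above control replicate 3, the lowest of its group. The log2 fold change was -0.50 with an SE of 0.12 (limma, adjusted p = 0.0128), which leaves 71.4% of the control mean. A two-sided exact permutation test over the 924 ways to choose 6 of 12 samples gave p = 0.00433, not adjusted. The same permutation test gave p = 0.00216 for *Cd36*, *Msr1* and *Gas6*, and 0.0281 for *Tyro3* and *Cd68*, which limma did not call. It gave p = 0.0606 for *Timd4*, 0.455 for *Mfge8* and *Marco*, and 0.773 for *Pros1*. The limma call of *Mertk* was lost without control replicate 2 (adjusted p = 0.0503), laser replicate 2 (adjusted p = 0.0538) or laser replicate 6 (adjusted p = 0.0528), while the log2 fold change without one sample remained between -0.57 and -0.41. It was also lost with no variance trend (limma, adjusted p = 0.0677). With laser replicates 1 to 3 alone against control it was -0.64, with a limma adjusted p of 0.0502 over all genes and of 0.0202 over the 25737 genes with reads in these 9 samples.

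*Axl*, the TAM receptor known to rise in inflammation, was no member of the group but was compared because it shares its ligand *Gas6* with *Mertk*. Its lowest, median and highest normalized counts were 6673, 9893 and 15642 in control and 20044, 26347 and 31597 in CNV d3. All laser samples lay above all control samples, with a log2 fold change of 1.35 and an SE of 0.16 (limma, adjusted p = 8.18e-05).

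Per kb of exon, *Mertk* stood above *Axl* in 5 of 6 control samples, and *Axl* stood above *Mertk* in all 6 laser samples. The level of *Axl* was between 0.413 and 1.07 times that of *Mertk* in the control samples and between 1.45 and 3.12 times in the laser samples. *Mertk* held 62.4% ± 7.87 of the summed level of the TAM receptors in control and 31.9% ± 6.46 in CNV d3 (SD, n = 6 each), while that sum was 5432 ± 514 and 7564 ± 684 normalized counts per kb.

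**Figure D2:**
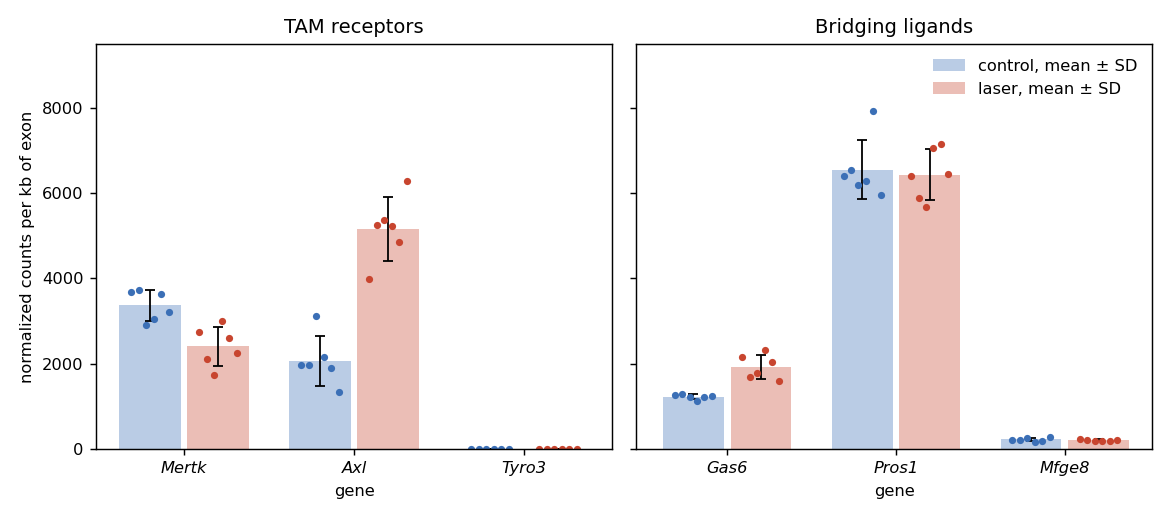
Level of the TAM receptors and of the bridging ligands in normalized counts per kb of exon, with points for samples and bars for the mean ± SD (n = 6 per group). Mertk is above Axl in 5 of 6 control samples and below it in all laser samples, Tyro3 is at or near 0, and Pros1 is the highest ligand in both groups.

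*Tyro3*, the TAM receptor best known from neurons, had 1 read in total in the control samples and 54 reads in the laser samples, spread over 5 of 6. Its highest laser value was 27.4 normalized counts in replicate 6, its median was 3.91, and replicate 1 had none. The groups therefore overlapped at 0. Pooled over samples, the ratio of the depth-scaled reads was 39.3, with an exact 95% interval from 6.76 to 1580 that covers counting error only. *Tyro3* did not pass the test (limma, adjusted p = 0.0615), but edgeR and DESeq2 on the recovered reads called it higher (adjusted p = 0.0448 and 0.0293), as did limma without laser replicate 1 (adjusted p = 0.0206). With laser replicates 1 to 3 alone the limma adjusted p was 0.206.

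*Timd4*, a marker of resident macrophages in many tissues, had no read in the 6 control samples and 80 reads in 4 of 6 laser samples. Its values in the laser samples ran from 0 to 39.9 normalized counts with a median of 5.75, and replicates 1 and 4 were at 0. The laser mean of 11.2 was 1.89 times the value of 3 reads in the shallowest control sample, which is 5.96 normalized counts. However, 48 of the 80 reads came from laser replicate 6, and the laser median lay under that value. *Timd4* did not pass the test (limma, adjusted p = 0.0579), whereas edgeR and DESeq2 gave adjusted p = 0.0346 and 0.0299. Limma called it higher without laser replicate 1 (adjusted p = 0.0282) or laser replicate 4 (adjusted p = 0.03), and with laser replicates 1 to 3 alone the adjusted p was 0.128.

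*Cd36*, a class B scavenger receptor that takes up long-chain fatty acids and oxidised lipoproteins, rose in every laser sample. Its lowest, median and highest normalized counts were 44.0, 81.8 and 143 in control and 1695, 2365 and 3965 in CNV d3. The laser samples stood far above all control samples, and the control spread had an SD of 35.6 around a mean of 82.0. The log2 fold change was 5.03 with an SE of 0.30 (limma, adjusted p = 1.04e-06), and the mean rose 32.3-fold. The call held under all alternatives, with a log2 fold change between 4.87 and 5.21, and it was 5.11 with laser replicates 1 to 3 alone (adjusted p = 0.000526). Among genes ranked by level per kb, *Cd36* moved from rank 10484 in control to rank 1361 of 27238 in CNV d3.

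*Msr1*, the class A scavenger receptor that binds acetylated lipoproteins and amyloid, was increased as well. Its lowest, median and highest normalized counts were 0, 69.8 and 91.3 in control and 654, 893 and 1084 in CNV d3. Control replicate 3 had no read and replicate 2 had 28.4 normalized counts, while the other 4 control samples stood between 67.5 and 91.3, and none came near the laser samples. The log2 fold change was 4.76 with an SE of 0.87 (limma, adjusted p = 0.00206), and it was 3.76 without control replicate 3 (adjusted p = 5.42e-05). The count-based tools put it lower, at 3.998 (edgeR) and 3.99 (DESeq2). With laser replicates 1 to 3 alone it was 4.68, with a limma adjusted p of 0.12 over all genes and of 0.0432 over the genes with reads.

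*Marco*, a class A receptor for microbes and particles, had no read in control and 20 reads in CNV d3, all from laser replicates 4 and 5, at 5.19 and 11.2 normalized counts. Both are among the samples with *Ddx3y*, and the part of that split was not tested. The laser mean of *Marco*, at 2.73, lay under the value of 3 reads in the shallowest control sample, so no fold is given. *Marco* did not pass the test (limma, adjusted p = 0.307). A low level of *Marco* in control was not detectable at this depth.

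*Cd68*, a sialomucin of the LAMP family and a widely used marker of phagocytic cells, was the most abundant of the 10 genes per kb in both groups, at rank 31 and rank 41 of all genes. Its lowest, median and highest normalized counts were 26191, 28259.7 and 29244 in control and 22349, 23355 and 30473 in CNV d3. Laser replicate 1 was the highest of all samples, whereas the other 5 laser samples lay below every control sample. The log2 difference was -0.19, with a 95% interval from -0.35 to -0.02 (limma, adjusted p = 0.133), and did not pass the test. Without laser replicate 1 it was -0.25 and passed (limma, adjusted p = 0.0095), and with upper quartile scaling it was -0.26 (limma, adjusted p = 0.0394). It was -0.085 with laser replicates 1 to 3 alone and did not pass (limma, adjusted p = 0.66 over all genes). Nor did it pass with no variance trend (limma, adjusted p = 0.402).

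**Figure D3:**
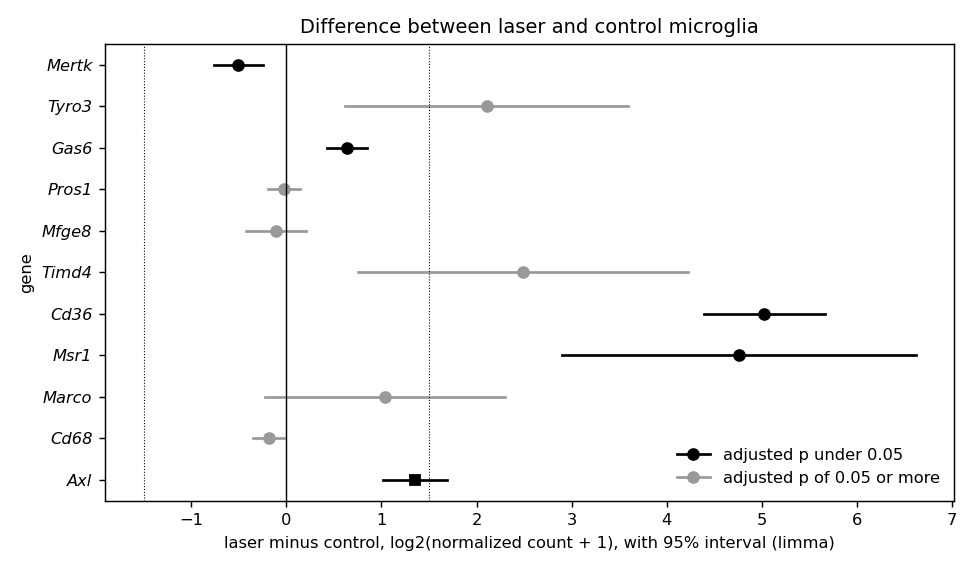
Difference between the laser and control means on the scale log2(normalized count + 1) for the 10 genes and for Axl (square), with 95% intervals from limma. Black marks an adjusted p under 0.05 and dotted lines mark the DEG threshold of 1.5, which Cd36 and Msr1 pass among the called genes.

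Per kb, the order of levels in control was *Cd68*, *Pros1*, *Mertk*, *Gas6*, *Mfge8*, *Cd36* and *Msr1*, with *Tyro3*, *Timd4* and *Marco* at or near 0. Of these neighbours, *Cd36* and *Msr1* overlapped, with 12.3 to 39.8 normalized counts per kb for *Cd36* and 0 to 14.4 for *Msr1*, while the samples of the other neighbours above them did not. In CNV d3 *Cd36* stood between *Gas6* and *Mfge8*, at 472 to 1104 normalized counts per kb against 179 to 237 for *Mfge8*. The levels of *Mertk*, at 1723 to 2999.8, and of *Gas6*, at 1602 to 2311, overlapped there. The level of *Msr1* was 103 to 171 normalized counts per kb, just below that of *Mfge8*.

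The laser samples differed among each other in the same genes. *Cd36* was highest in replicates 3 and 6, at 3965 and 3586 normalized counts, and lowest in replicate 1, at 1695. *Mertk* was lowest in replicate 3 and highest in replicates 4 and 1. *Gas6* was highest in replicates 4 and 1, at 5888 and 5480, and lowest in replicate 6, at 4081. Replicates 1 and 4, as well as 3 and 6, fall on either side of the split by *Xist* and *Ddx3y*. The part of that split in these differences was not tested.

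Monocyte markers were counted in the same samples, because the sort left out cells with Ly6C. Of 10 markers in the table, 5 were higher in CNV d3 and none was lower by limma, and their summed level was 386 to 1178 normalized counts in control and 1226 to 5011 in CNV d3. The sum was highest in laser replicates 3 and 6, at 5011 and 4364, and lowest in replicates 1 and 4, at 1226 and 1624. *Ccr2*, the chemokine receptor of inflammatory monocytes, was at 0 to 95.3 normalized counts in control and 120.4 to 1351 in CNV d3. The monocyte genes *Ly6c2*, *Ly6c1* and *Chil3* had no read in control. In CNV d3 *Ly6c2* had 93 reads, spread over all 6 samples, with a mean of 12.9 normalized counts. Dendritic cell markers summed to 381 to 888 in control and 544 to 1527 in CNV d3, with 3 of 7 higher, and markers of border and perivascular macrophages summed to 2166 to 3489 and 2775 to 3959, with 3 of 9 higher. The part of these cells in the levels of *Cd36*, *Msr1* and *Mertk* was not tested.

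Markers of neutrophils summed to at most 26.4 normalized counts in any sample, those of fibroblasts to at most 7.79 and those of the retinal pigment epithelium to at most 313. Photoreceptor markers summed to 713 to 6953 in control and 590.3 to 12584 in CNV d3, with none of 11 passing the test. Markers of Mueller glia and astrocytes summed to 19454 to 41159 in control and 57428 to 99480 in CNV d3, with 3 of 9 higher and 1 lower. Most of that sum was *Apoe*, a lipoprotein gene that microglia also express, at a mean of 20865 in control and 68946 in CNV d3. Markers of endothelium and mural cells summed to 516 to 991 and 677 to 1230.3, with 2 of 9 higher and 1 lower. The part of these cells was not tested.

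**Figure D4:**
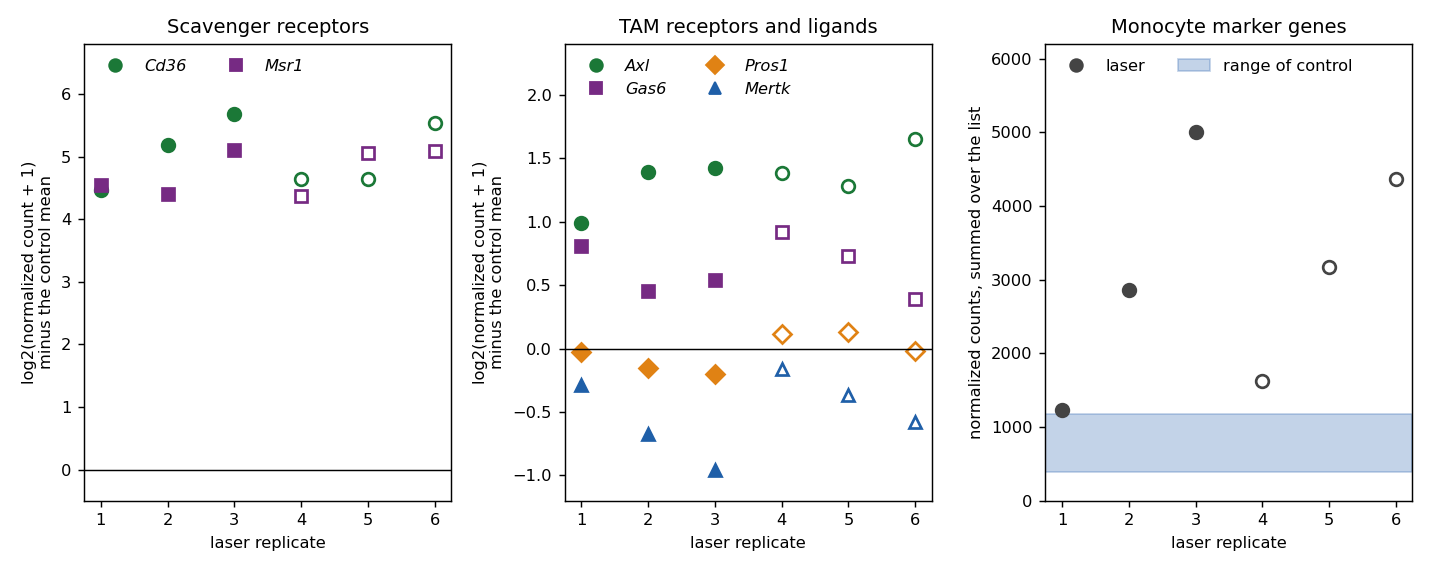
Each laser sample's difference from the control mean in log2(normalized count + 1) for the scavenger receptors and the TAM system, beside the summed normalized counts of 10 monocyte markers with the control range shaded. Filled symbols are samples with Xist (replicates 1 to 3) and open symbols samples with Ddx3y (replicates 4 to 6), and Cd36 and the monocyte sum are both highest in replicates 3 and 6.

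The genes whose pattern over the 12 samples was most like that of a called gene were ranked by the mean absolute difference of centred log2 values, among 10756 genes with a mean of at least 50 normalized counts. For *Mertk* these were *Txndc11* (0.08) and *Slco2b1* (0.08). *Gm2a* (0.10) and *Igfbp4* (0.13) were closest to *Gas6*. For *Cd36* the closest were *Cenpa* (0.64) and *Fabp5* (0.67), at a much larger distance. These genes were higher in CNV d3 by 4.78 (*Cenpa*) and 3.78 (*Fabp5*) on the log2 scale.

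Other genes of the pathways were counted by list, beside a median log2 difference of 0.15 over all 27299 genes, and the counts are to be read against the shares of all genes called, 8.29% higher and 4.57% lower, or 13.7% and 8.92% of genes with a mean of at least 10. The lists differ in size and level, and no list was tested against these shares. Among 8 partners of the TAM system, 3 were higher and 1 was lower (median 0.19). Besides *Axl*, *Socs3*, an inhibitor of cytokine signalling, rose by 1.42 on the log2 scale (limma, adjusted p = 0.000743). *Adam17*, the protease that sheds MerTK, was higher by 0.29 (limma, adjusted p = 0.0365), but lost the call with upper quartile scaling, with no variance trend, without 6 of the 12 samples in turn and with laser replicates 1 to 3 alone. *Vkorc1*, an enzyme of the vitamin K cycle that *Gas6* and protein S depend on, fell by 0.55 on the log2 scale (limma, adjusted p = 0.0179). Its call was lost with edgeR, with the replicate number as a block and with laser replicates 1 to 3 alone.

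Among 22 other phosphatidylserine receptors and bridging proteins, 6 were higher and 4 were lower, with a median of 0.10, or 0.08 with the 1 gene absent from control left out. *Cd300lf*, a receptor for phosphatidylserine and ceramide, rose from 119 ± 66.4 to 830.4 ± 142 normalized counts (SD, n = 6 each), a log2 fold change of 3.01 (limma, adjusted p = 0.000112). *Thbs1*, a matrix protein that CD36 binds, rose by 1.05 on the log2 scale (limma, adjusted p = 0.00204), although with laser replicates 1 to 3 alone it lost the call. *Trem2*, a lipid receptor of microglia, fell by 0.76 on the log2 scale (limma, adjusted p = 0.000741), with no overlap of the groups. *Itgb3*, a subunit of the integrin that binds *Mfge8*, fell by 0.60 (limma, adjusted p = 0.0136), and *C1qa*, a subunit of complement C1q, fell by 0.52 (limma, adjusted p = 0.00107). Both lost the call in 1 of the 2 fits with laser replicates 1 to 3 alone. *Cd300ld*, a family member of *Cd300lf*, was higher by 1.81 (limma, adjusted p = 0.0276). It lost the call with edgeR, with the replicate number as a block, with no variance trend and without 9 of the 12 samples in turn. The call was also lost with laser replicates 1 to 3 alone (limma, adjusted p = 0.186 over all genes and 0.111 over the genes with reads).

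Of 20 genes of engulfment signalling downstream of such receptors, 4 were higher and 1 was lower (median 0.11). *Elmo1*, which with Dock180 activates Rac at the phagocytic cup, fell from 16287 ± 1404 to 8547 ± 718 normalized counts, a log2 fold change of -0.93 (limma, adjusted p = 8.12e-06). *Rac2*, the Rac protein of blood cells, rose by 0.94 (limma, adjusted p = 3.71e-05). Neither gene's groups overlapped. *Rac1* and *Dock5* were also called higher (limma, adjusted p = 0.038 and 0.0411). Both calls were lost with edgeR, with the replicate number as a block and with laser replicates 1 to 3 alone. They were also lost without 6 (*Rac1*) and 9 (*Dock5*) of the 12 samples in turn. *Rac1* lost the call with upper quartile scaling and with no variance trend as well, and *Dock5* with DESeq2 and with a pseudocount of 5.

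Of 18 other scavenger receptors in the table, 4 were higher and 1 was lower (median 0.52, or 0.57 with the 1 gene absent from control left out). *Colec12*, a class A receptor with a lectin domain, rose from 31.8 ± 50.1 to 249.7 ± 106 normalized counts, a log2 fold change of 4.62 (limma, adjusted p = 0.00682), and lost the call with laser replicates 1 to 3 alone. On the recovered reads the log2 fold change of *Colec12* was 2.98 with edgeR and 2.97 with DESeq2. *Cxcl16*, both a chemokine and a receptor for oxidised lipoproteins, rose by 0.96 (limma, adjusted p = 5.41e-05). *Stab1*, which also binds phosphatidylserine, rose by 0.59 (limma, adjusted p = 0.0107), with the call lost in 1 of the 2 fits with laser replicates 1 to 3 alone. *Cd14*, the lipopolysaccharide co-receptor that also tethers apoptotic cells, fell by 0.79 on the log2 scale (limma, adjusted p = 0.00111).

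In the LAMP family and phagosome maturation, 3 of 21 genes were higher and 1 was lower (median 0.07), which is 14.3% and 4.76%, near the shares of all genes. *Cd63*, a tetraspanin of late endosomes, rose by 0.72 on the log2 scale (limma, adjusted p = 0.000312). *Rab7*, *Lamp1* and *Rab20* changed by 0.31, 0.22 and -0.63 (limma, adjusted p = 0.0186, 0.033 and 0.0407). All 3 lost the call with no variance trend and with the replicate number as a block. Leaving out samples in turn ended the call of *Lamp1* in 6 of 12 cases and that of *Rab20* in 9. With laser replicates 1 to 3 alone the limma adjusted p was 0.201 over all genes and 0.238 over the genes with reads for *Lamp1*, 0.358 and 0.317 for *Rab20*, and 0.0158 and 0.0767 for *Rab7*. With upper quartile scaling *Rab7* and *Lamp1* lost the call (limma, adjusted p = 0.0791 and 0.199), and *Lamp1* did so with edgeR (adjusted p = 0.0638). *Lamp1* also lost it with a pseudocount of 5, and *Rab20* with TMM scaling.

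Among 19 lipid-sensing nuclear receptors and genes of lipid handling, 7 were higher and 1 was lower (median 0.89). *Fabp5*, a fatty acid binding protein, rose from 61.0 ± 26.0 to 842 ± 286 normalized counts, a log2 fold change of 3.78 (limma, adjusted p = 8.05e-06). *Abcg1*, an exporter of cholesterol, rose by 1.96 (limma, adjusted p = 8.23e-05), and *Npc1*, which moves cholesterol out of lysosomes, fell by 0.58 on the log2 scale (limma, adjusted p = 0.000815). *Nr1h3*, the oxysterol receptor LXR alpha, was higher by 3.26 (limma, adjusted p = 0.0494) on a mean of 15.5 and 39.5 normalized counts. It lost the call with edgeR, DESeq2, upper quartile scaling, a pseudocount of 5 and the replicate number as a block. The call was also lost with laser replicates 1 to 3 alone and without 11 of the 12 samples in turn. The log2 fold change of *Nr1h3* was 1.34 with edgeR and with DESeq2. *Pparg*, a nuclear receptor known to control *Cd36*, was at 0 to 80.2 normalized counts in control and 5.37 to 64.9 in CNV d3 and did not pass the test (limma, adjusted p = 0.21).

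Of 10 genes of inhibitory signals, 4 were higher and 1 was lower (median 0.70). *Sirpa*, the receptor of the signal CD47 that restrains engulfment, fell by 0.48 on the log2 scale (limma, adjusted p = 0.00168). *Cd24a* had no read in control and a laser mean of 57.9 normalized counts, at least 9.72-fold higher than 3 reads in the shallowest control sample (limma, adjusted p = 0.000394). *Cd200* had 1 read in control and 302 in CNV d3, a ratio of the depth-scaled reads of 219.7 with an exact 95% interval from 39.1 to 8706 for counting error (limma, adjusted p = 0.0101). *Ptpn11*, a phosphatase that SIRP alpha recruits, rose by 0.72 (limma, adjusted p = 0.0203) and lost the call with laser replicates 1 to 3 alone and without laser replicate 2, 3 or 6.

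**Figure D5:**
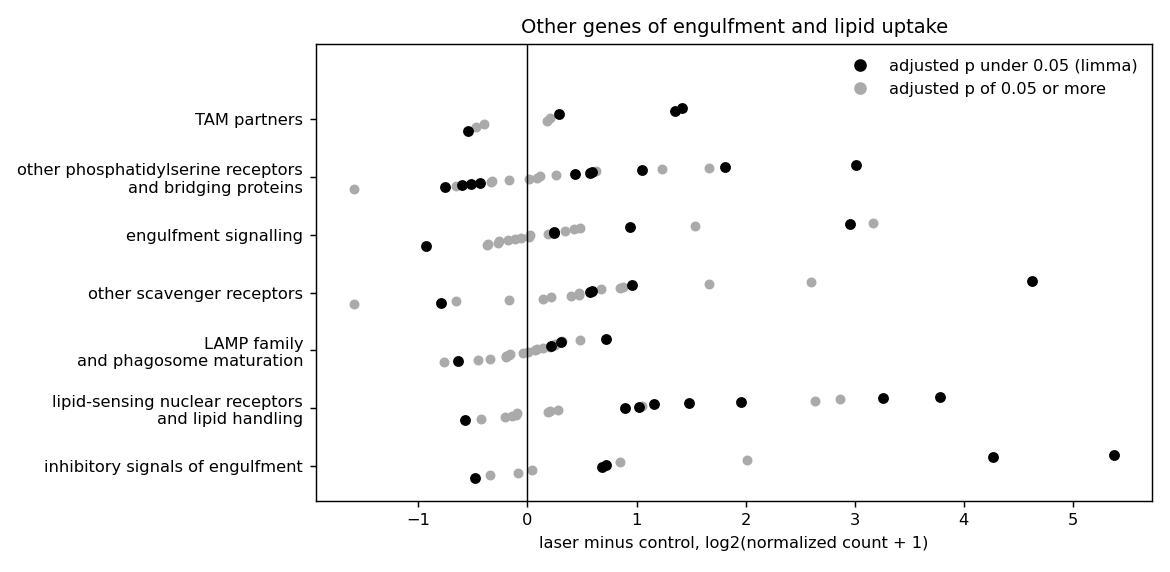
Laser minus control difference on the scale log2(normalized count + 1) for each gene of 7 lists, black where the limma adjusted p was under 0.05 and grey otherwise. In the lipid list 7 of 19 genes are called higher, and each list holds 1 to 4 called lower.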

How the data were processed

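Retinal microglia of 6 laser and 6 control samples were measured by bulk RNA-seq from full-length cDNA made by template switching and PCR, so that read counts are not counts of molecules. The labels list 7 of the samples in 2 parts, which were counted as 1 sample each. These are all 6 control samples and, of the laser samples, replicate 4 only. Listing in parts and group can therefore hardly be told apart. The methods describe 2 files of mapped reads for every sample, 1 per flow cell, that were merged. Sample titles do not say whether the listed parts are these files. The submitters' processing notes name FastQC 0.72, STAR 2.7.2b, featureCounts 1.6.4, R 3.5.3, DESeq2 1.22.2 and GRCm38.p6, and the methods name Gencode M25. The authors deposited a signal, the read count of a gene over the DESeq2 size factor of its sample. The authors' columns of group means, fold changes and adjusted p-values were not used.

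All values were whole multiples of 1 read (100%, tolerance 1e-06). The value of 3 reads was taken as the floor, between 2.22 and 5.96 normalized counts per sample, and it covers counting error only. The program limma 3.58.1 in R 4.3.3 with a variance trend was fitted on log2(value + 1) over 27299 genes. edgeR 4.0.16 and DESeq2 1.42.0 were run on recovered reads. All were tested on simulated data. The limit set there on false calls was applied to limma and edgeR only, because DESeq2 made more of them. An adjusted p under 0.05 made a call, and DEG also had an absolute log2 fold change above 1.5. Alternatives were pseudocounts of 0.5 and 5, a filter of at least 10 normalized counts in at least 6 samples, other scalings, the replicate block, no variance trend and leaving out each sample. The comparison within samples with more *Xist* than *Ddx3y* was chosen after seeing the data.

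All 10 genes were named, together with *Axl*, up to 3 genes per list and direction with the largest change among called genes with a mean of at least 10, and for called genes with reads in all samples the 2 most similar patterns. *Pparg*, *Ccr2* and *Apoe* were named after their values were seen. The members and lists were chosen with earlier results of these data known. The value of 1 marker gene is not reported here. Coordinates and exon lengths came from Gencode M21 on GRCm38, with 27238 of 27299 genes matched by identifier, and promoters from RefSeq, with 9 of 10 genes matched.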

Additional observations from a re-analysis of the deposited data

Results flagged for a closer look

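In 3 of the 18 groups of 6 samples in which one of the 10 genes varied, a value was set apart from the others, by the Dixon criterion at 95% on the gap to the nearest sample over the range, on the log2 scale. For normally distributed values chance sets such a value apart in about 1 in 20 groups, a rate that does not hold where most samples have 0 reads. *Msr1* in control replicate 3 was at 0 normalized counts (0 reads), with a gap of 0.747 of the range, while the other control samples had 28 to 85 reads. *Pros1* in control replicate 5 was at 32368 normalized counts, the highest of all samples, with a gap of 0.672. *Tyro3* in control replicate 4 was at 1.01 normalized counts, which is the single read of that gene in control, so that its gap had to be the whole range.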

How the results depend on the processing

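*Cd36*, *Gas6* and *Msr1* remained called higher under the 9 other settings fixed in the plan and without each sample in turn, and *Pros1* and *Mfge8* remained uncalled. edgeR and DESeq2 each called 5 of the 10 genes higher and 4 as increased DEG instead of 3 and 2, which adds *Tyro3* and *Timd4*, and without one sample these counts ranged from 3 to 5 and from 2 to 4. The number called lower was 2 with upper quartile scaling, 0 with no variance trend and between 0 and 2 without one sample. The number whose laser samples all lay below control was 1 with upper quartile scaling, 1 in samples with more *Xist* than *Ddx3y*, and 0 or 1 without one sample. In those samples (9 of 12), over all genes, 0 of the 10 genes were called lower and 1 was an increased DEG, and 1022 genes were higher and 540.0 lower, with 524 and 166 DEG. Over the 25737 genes with reads in them the counts were 1103 and 572, with 594 and 150.0 DEG. These fits hold 3 laser samples fewer. DESeq2 called 2170.0 genes lower and 572 as decreased DEG, against 1247 and 293. The difference of *Pros1* ranged from -0.0563 to 0.0309 without one sample and was above 0 without control replicate 5, laser replicate 2 or laser replicate 3. Of the 30 named genes of other lists, 15 kept the call under all settings. *Tyro3*, *Timd4* and *Marco* had no value under the filter on low values, and *Marco* none in DESeq2. The cause of these changes was not tested. With the replicate number as a block, 3 of the 10 genes were called higher and 1 lower, and 1885 and 975 of all genes. The labels name no pairing, the deviations of same-numbered samples had correlations between -0.01 and 0.05, and 1 of 6 correlated best with its own number. The median difference of all genes with a mean of at least 10 was 0.10, and 0.12 with TMM and 0.03 with upper quartile scaling. At the depth of the control samples, levels under 3.01 to 5.96 normalized counts could not be told from 0.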
